A study of Rattus norvegicus with 4 samples.

Results

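The genes described here are 10 receptor kinases of the TGF-beta superfamily, Acvr1c, Acvr1, Acvr1b, Acvr2a, Acvr2b, Tgfbr1, Tgfbr2, Bmpr1a, Bmpr1b and Bmpr2, on arrays of cultured rat cortical neurons with and without an shRNA against PHF6. Their rows were taken from the 17245 genes that carry a single gene symbol, and 9 of the 10 had such a row, each with 1 probe set. Tgfbr2 was not analysed here. The family was chosen by its leading gene: Acvr1c had been picked from the measured difference between the groups, so its difference is given as a description with no test, and the other receptors were added by family and not by value.

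In 2 of the 4 arrays the neurons had received PHF6shRNA-2 through a pLL3.7 lentivirus, and these are labelled as PHF6 knockdown and called PHF6 shRNA below. They were set against 2 arrays of neurons given the same vector with control shRNA, labelled wild type and called control shRNA. All 4 came from primary cultures of Sprague Dawley cortex at stage E18, with RNA taken 5 days after infection, and the comparison addresses which transcripts differ once PHF6 is targeted. PHF6 is a nuclear zinc-finger protein mutated in an X-linked form of intellectual disability. A single hairpin was used, so loss of PHF6 and other effects of that hairpin cannot be told apart. The labels call the duplicates biological but do not say whether they were separate cultures or animals.

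Receptors of this superfamily work in pairs. A ligand dimer brings together type II receptors, whose kinases are constantly active, and type I receptors, which the type II kinases switch on by phosphorylation. The type I receptors of activin, nodal and TGF-beta pass the signal to Smad2 and Smad3, and those of the bone morphogenetic proteins (BMPs) to Smad1, Smad5 and Smad9. Smad4 joins both branches on the way to the nucleus. In neurons these pathways are known for roles in axon formation, synapse growth, survival and the response to injury.

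Values are RMA intensities on a linear scale, or their log2 where stated. Each array was given a background level, taken as the 95th percentile over 206 genes for olfactory and vomeronasal receptors, which cortical neurons are not known for. It was 39.9 and 32.7 on the PHF6 shRNA arrays, duplicates 1 and 2, and 41.2 and 32.5 on the control shRNA arrays. Phf6 itself exceeded it on 1 of the 4 arrays, with 34.4 and 31.3 in PHF6 shRNA against 32.8 and 34.3 in control shRNA. This probe set therefore gave no check of the knockdown, and every direction rests on the labels. All 7 neuronal markers were above background on all 4 arrays, and none of the 4 endothelial markers was above it on any. Of the 17245 genes, 9536 were above it on all 4 arrays and 5902 on none. With limma, 0 of the 17245 genes (0.0%) passed an adjusted p of 0.05, while 1862 (10.8%) had an unadjusted p under 0.05. An exact test of a single gene on 2 arrays against 2 cannot give a two-sided p below 0.333. In tissue or culture RNA of this kind, fewer cells of a type and less RNA per cell cannot be told apart.

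**Figure D1:**
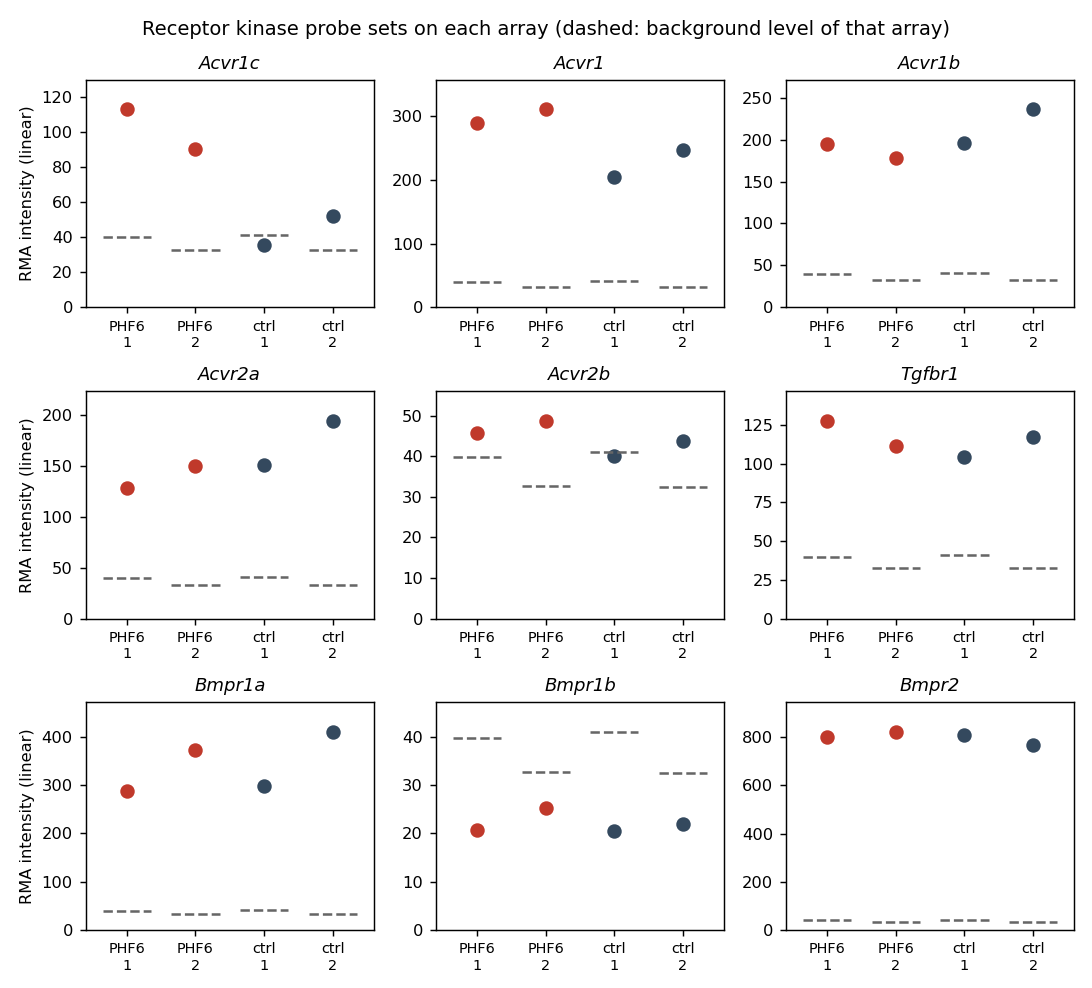
RMA intensity (linear, y axis from 0) of the 9 receptor kinases on the 2 PHF6 shRNA arrays (red) and the 2 control shRNA arrays (dark), 1 point per array, with the background level of each array as a dashed line. Acvr1c stands at 112.7 and 90.3 in PHF6 shRNA against 35.3 and 52.0 in control shRNA, and Bmpr1b stays below background on every array.

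Acvr1c encodes ALK7, the type I receptor of activin B, nodal and some growth and differentiation factors, which signals through Smad2 and Smad3. Its intensity was 112.7 and 90.3 in the PHF6 shRNA arrays, against 35.3 and 52.0 in the control shRNA arrays. Both PHF6 shRNA arrays lay above both control shRNA arrays, and the groups did not overlap. Relative to the background of each array these values were 2.83 and 2.76 times in PHF6 shRNA and 0.857 and 1.60 times in control shRNA, so control duplicate 1 did not reach background and only 1 of the 2 control arrays measured the gene. On the log2 scale the means were 6.66 ± 0.23 in PHF6 shRNA and 5.42 ± 0.40 in control shRNA (SD, n = 2 each). The difference was 1.24 log2 units, or 2.36-fold, and 1.13 log2 units when control duplicate 1 was set to its background level. Leaving out each array in turn gave 0.96 to 1.52. Of all genes, 0.707% were at least 1.5-fold higher in PHF6 shRNA with no overlap, and Acvr1c was the single receptor of the 9 among them. Because Acvr1c was picked from this contrast, its place in that share is no evidence.

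The sequences before the start sites of Acvr1c and Acvr1b are shown because these are close relatives, both activin and nodal receptors of type I. Their differences also lay on opposite sides of 0, but that of Acvr1b, -0.21 log2 units, did not pass (limma adjusted p = 0.66). Acvr1c was chosen for its difference, so the contrast between them was not tested. Shown are the 250 bases before the start, 5′ to 3′ on the strand of the gene, from the RefSeq promoter table of GRCr8. That source held 8 of the 10 receptors and not Acvr1 or Bmpr1b. Acvr1c lies on the minus strand at chr3:63301155-63301404 and Acvr1b on the plus strand at chr7:134164751-134165000. Capitals mark CCGCCC, the GC box bound by Sp-family factors, on either strand.
Acvr1c: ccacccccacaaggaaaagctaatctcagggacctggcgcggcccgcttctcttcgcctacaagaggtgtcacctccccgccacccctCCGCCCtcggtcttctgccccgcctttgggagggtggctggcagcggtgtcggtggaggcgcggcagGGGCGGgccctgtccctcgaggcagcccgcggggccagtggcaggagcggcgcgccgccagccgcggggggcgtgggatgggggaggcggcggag
Acvr1b: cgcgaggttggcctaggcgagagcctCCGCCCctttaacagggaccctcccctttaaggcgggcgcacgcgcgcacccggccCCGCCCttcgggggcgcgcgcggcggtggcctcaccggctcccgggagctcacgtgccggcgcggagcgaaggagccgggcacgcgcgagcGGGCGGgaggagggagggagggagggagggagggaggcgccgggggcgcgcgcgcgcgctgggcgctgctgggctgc
The GC box was present 2 times in the Acvr1c window and 3 times in that of Acvr1b. It was found in 6 of the 8 receptor windows and in 30.5% of all 33469 windows of the same length. CAGAC, the SMAD box, was in none of the 8 and in 42.9% of all windows. GGCGCC, a GC-rich element of BMP-responsive genes, was in the windows of Acvr1b and Tgfbr1 and in 8.69% of all, and CACGTG, an E-box, in that of Acvr1b and in 5.59% of all. All motifs were searched on both strands and overlapping matches were counted separately. The share of G and C was 74.4% for Acvr1c and 79.6% for Acvr1b, against a median of 51.2% over all windows.

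The other type I receptors of the activin and TGF-beta branch, Acvr1b and Tgfbr1, did not pass the test and lay at -0.21 and 0.11 log2 units. Acvr1b encodes ALK4, the main activin and nodal receptor of type I. It read 194.5 and 178.4 in PHF6 shRNA, against 196.4 and 235.8 in control shRNA. Both PHF6 shRNA arrays were lower, although PHF6 shRNA duplicate 1 and control duplicate 1 were nearly equal. The difference of -0.21 ± 0.12 log2 units (SE) did not pass (limma adjusted p = 0.66), and its 95% interval ran from 0.704-fold to 1.06-fold. It was -0.08 without control duplicate 2 and -0.34 without control duplicate 1. Tgfbr1 encodes ALK5, the TGF-beta receptor of type I, and read 127.9 and 111.6 in PHF6 shRNA, against 104.3 and 117.3 in control shRNA. The groups overlapped, and the difference was 0.11 ± 0.11 log2 units (adjusted p = 0.89, 95% interval 0.889-fold to 1.31-fold). That value lay between 0.01, with PHF6 shRNA duplicate 1 left out, and 0.21, with duplicate 2 of that group left out, and was 0.03 once control duplicate 1 was dropped. Both genes were above background on all 4 arrays. Acvr1c was chosen for its difference, so the gap between it and these relatives was not tested.

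Among the type I receptors of the BMP branch, Acvr1 had the largest difference. It encodes ALK2, which binds BMPs and, with activin, can also be held in inactive complexes. Its intensity was 289.8 and 310.6 in PHF6 shRNA, against 204.6 and 246.6 in control shRNA. The groups did not overlap, and all 4 arrays were well above background, at 7.27 and 9.50 times it in PHF6 shRNA and 4.97 and 7.59 times in control shRNA. The log2 means were 8.23 ± 0.07 in PHF6 shRNA and 7.81 ± 0.19 in control shRNA (SD, n = 2 each), a difference of 0.42 ± 0.12 (SE) or 1.34-fold. It had an unadjusted p of 0.014 and did not pass over all genes (limma adjusted p = 0.32), with a 95% interval of 1.09-fold to 1.64-fold. As single arrays were left out, it ran from 0.28 to 0.55. Acvr1 was the single one of the 8 receptors other than Acvr1c with an unadjusted p under 0.05. Among all genes 10.8% had such a p, so nothing is read from this count.

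Bmpr1a, which encodes ALK3, a BMP receptor of type I, gave 287.5 and 374.3 in PHF6 shRNA and 298.8 and 411.3 in control shRNA. The groups overlapped, and the values went with the duplicate number more than with the shRNA. The difference was -0.10 ± 0.20 log2 units (adjusted p = 0.98), and its 95% interval of 0.664-fold to 1.32-fold was the widest among the receptors above background on all arrays. Bmpr1b, which encodes ALK6, read 20.8 and 25.3 in PHF6 shRNA and 20.5 and 22.0 in control shRNA. It was below background on all 4 arrays, so its fitted difference sets background values against each other and no fold is read from it.

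None of the 3 measured type II receptors passed the test, and Acvr2a and Acvr2b had differences on opposite sides of 0. Acvr2a, an activin receptor of type II that also binds BMPs, read 127.8 and 149.6 in PHF6 shRNA, against 151.2 and 194.4 in control shRNA. The 2 groups did not overlap, but PHF6 shRNA duplicate 2 and control duplicate 1 were nearly equal. The difference was -0.31 ± 0.15 log2 units (adjusted p = 0.58, 95% interval 0.619-fold to 1.05-fold). Without control duplicate 2 it was -0.13 and without control duplicate 1 -0.49. Acvr2b, its closest relative, read 45.8 and 48.8 in PHF6 shRNA, against 40.1 and 43.8 in control shRNA, and control duplicate 1 did not reach background. The groups did not overlap, and the difference was 0.18 ± 0.09 (adjusted p = 0.62), or 0.11 without control duplicate 1. Bmpr2, the BMP receptor of type II, read 801.6 and 823.2 in PHF6 shRNA, against 807.7 and 768.8 in control shRNA. Its groups overlapped, with a difference of 0.04 ± 0.08 (adjusted p = 0.97) and the narrowest interval of the family, 0.892-fold to 1.19-fold. It lay between 0.01 without control duplicate 2 and 0.08 without control duplicate 1.

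**Figure D2:**
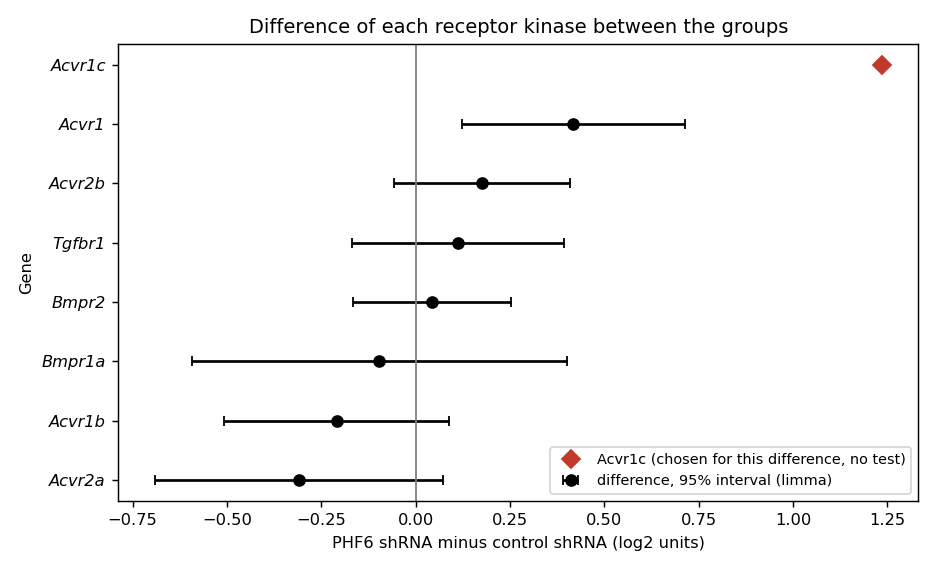
Log2 difference, PHF6 shRNA arrays minus control shRNA arrays (x axis), for 8 receptor kinases (y axis), leaving out Bmpr1b, which was below background on every array. Bars are limma's 95% intervals for the 7 tested, with none for Acvr1c (red diamond); Acvr1c lies at 1.24 and Acvr1 at 0.42, and the intervals of the other 6 include 0.

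Of the 9 receptors, 6 had higher means in PHF6 shRNA and 3 lower, with a median difference of 0.11 log2 units against -0.01 over all genes. The groups did not overlap for 5 of the 9, against 37.8% of all genes. Acvr1c, Acvr1 and Acvr2b were the 3 without overlap toward higher values, a direction that 16.0% of all genes showed, and Acvr1b and Acvr2a the 2 toward lower values, as did 21.7% of all genes. Acvr1c was picked from this contrast, so nothing is read from these counts. None of the 8 tested passed, with limma adjusted p from 0.32 to 0.98. Because each receptor has its own probes, the levels of different receptors were not ranked. Above background on all 4 arrays were 6 of the 9, Acvr1, Acvr1b, Acvr2a, Tgfbr1, Bmpr1a and Bmpr2, against 55.3% of all genes. In the arrays numbered 2 against those numbered 1, 7 of the 9 were higher, by up to 1.34-fold for Bmpr1a, while Tgfbr1 and Bmpr2 were nearly level at -0.01 and -0.02 log2 units.

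Acvr1c and Acvr1 are neighbours on rat chromosome 3, with no protein-coding gene between them in the RefSeq annotation, and Acvr2a lies on the same chromosome. The nearest named protein-coding genes were therefore read too, 3 on each side, a choice made after the values were seen. Galnt5, Ermn and Cytip on the side of Acvr1c, and Upp2 and Ccdc148 on the side of Acvr1, were below background on all 4 arrays, with intensities between 15.9 and 31.7. Pkp4, which encodes a plakophilin-related protein of cell junctions, was the farthest of the 3 on that side and above background on all 4 arrays. It read 249.9 and 229.4 in PHF6 shRNA against 280.4 and 281.7 in control shRNA. It was lower in both PHF6 shRNA arrays, by 0.23 log2 units, unlike Acvr1c and Acvr1.

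**Figure D3:**
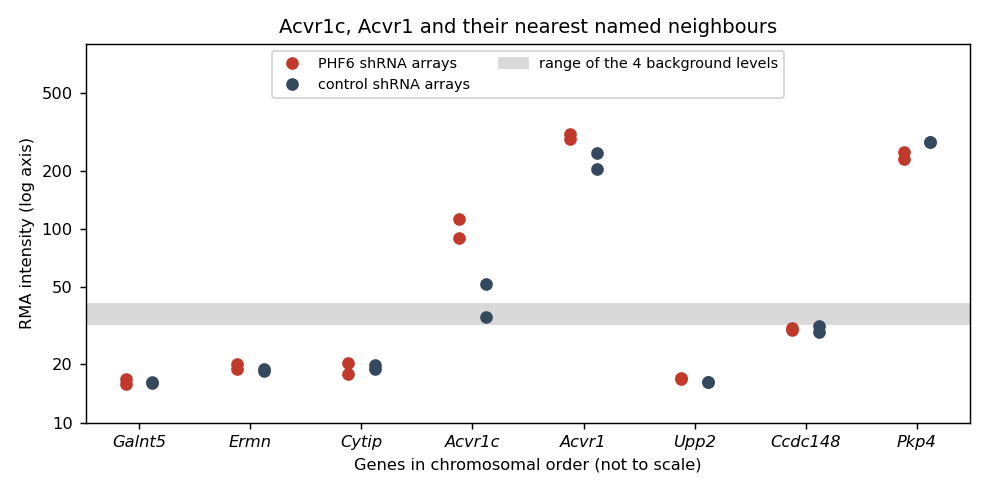
RMA intensity (log axis) of Acvr1c, Acvr1 and 3 named protein-coding genes on each side, in chromosomal order but not to scale, with 1 point per array, PHF6 shRNA (red) left of control shRNA (dark). The grey band spans the 4 background levels, 32.5 to 41.2, and Acvr1c, Acvr1 and Pkp4 are the 3 genes with arrays above it.

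Over the 4 arrays, the genes most like Acvr1c were Dynlt3, Pcgf3, Idi1, Chml and Klhl4. Likeness was the Euclidean distance between log2 values centred on the mean of each gene. The 10886 candidates were genes above background on at least 2 arrays, leaving out symbols that start with LOC, RGD, Olr, Vom or Mir. The distance was 0.15 for Dynlt3, a dynein light chain, 0.22 for Pcgf3, a Polycomb-group protein, and 0.22 for Idi1, an enzyme of isoprenoid synthesis. Chml, a Rab escort protein, stood at 0.25 and Klhl4, a kelch-like protein, at 0.27. Dynlt3 read 289.1 and 225.1 in PHF6 shRNA, against 86.3 and 116.4 in control shRNA. Like Acvr1c, it was highest on PHF6 shRNA duplicate 1 and lowest on control duplicate 1. Among the other receptors Acvr1 was closest to Acvr1c, at 0.89, and Acvr2a farthest, at 1.60. With only 4 arrays many genes can share a pattern, so the list is a description.

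**Figure D4:**
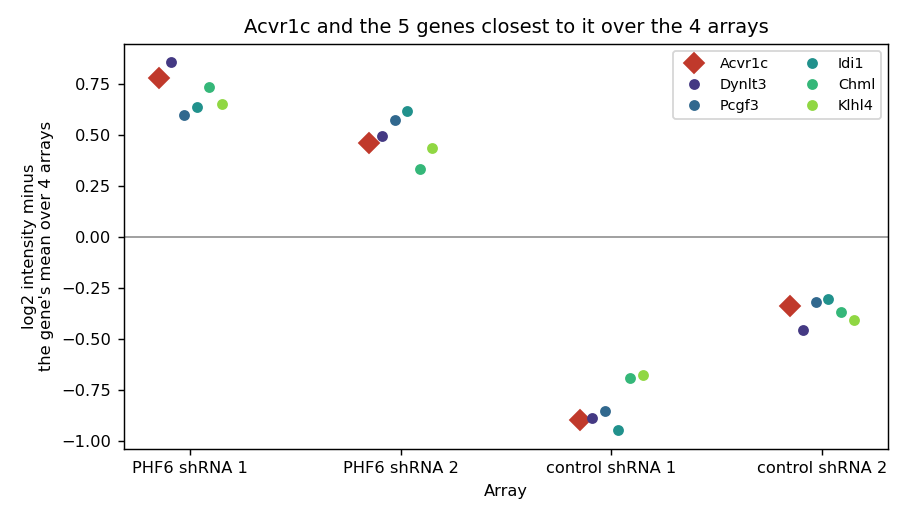
Log2 intensity minus the mean of each gene over the 4 arrays (y axis) for Acvr1c (red diamonds) and the 5 genes at the smallest distance from it, on the 2 PHF6 shRNA arrays and then the 2 control shRNA arrays. All 6 genes are highest in the PHF6 shRNA arrays and lowest on control duplicate 1.

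Astrocyte markers were read beside Acvr1c, since such cultures can hold glia. Of 7 listed, 6 were measured and all 6 had higher means in PHF6 shRNA. Of the 6, 2 were without overlap, against 37.8% of all genes. The summed intensity of the 6 was 967 and 1482 in PHF6 shRNA, against 654 and 1194 in control shRNA, so the groups overlapped. Slc1a2, a glutamate transporter of astrocytes, read 318 and 357 in PHF6 shRNA against 140 and 210 in control shRNA. Aldoc read 246 and 283 against 145 and 206, and these were the 2 without overlap. Gfap, the astrocyte filament protein, read 34.6 and 46.3 against 30.0 and 52.7, with overlap. No astrocyte marker was below background on every array, but Gfap was below it on both arrays numbered 1 and Aqp4 on control duplicate 1. All 6 astrocyte markers were also higher in the arrays numbered 2 than in those numbered 1, from 1.20-fold for S100b to 2.42-fold for Slc1a3. Their part in the Acvr1c difference was not tested. All 7 neuronal markers were measured, 5 with lower means in PHF6 shRNA. Of the 7, 3 were without overlap (Slc17a6, Tubb3 and Syn1, all lower), against 37.8% of all genes. The summed intensity of the 7 was 7435 and 7421 in PHF6 shRNA, against 7815 and 7550 in control shRNA. The groups did not overlap, but PHF6 shRNA duplicate 1 and control duplicate 2 were close. The sum is weighted to bright probe sets such as Tubb3, at 1399 and 1484 against 1659 and 1692. It is thus no measure of the 7 markers alike. Slc17a6, a glutamate transporter of synaptic vesicles, read 55.6 and 47.0 in PHF6 shRNA against 85.2 and 79.2 in control shRNA. Slc17a7 and Map2 had higher means in PHF6 shRNA, with overlapping groups. Slc17a7 read 1141 and 852 in PHF6 shRNA against 1009 and 717 in control shRNA. The part of the neuronal markers in the Acvr1c difference was not tested either. Of 6 microglial markers, 4 were below background on all arrays, among them Aif1, Csf1r and P2ry12. Cx3cr1 and Tmem119 were above it on all 4, at 1.08 to 1.30 times it. Above background on all 4 arrays were also 3 of 3 GABAergic, 3 of 5 progenitor and 2 of 6 oligodendrocyte lineage markers. The same held for 2 of 5 markers of mural cells and fibroblasts, and for 55.3% of all genes.

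The rest of the pathway was read through 5 lists with 102 genes, of which 92 were measured. None of the 92 passed (limma adjusted p from 0.28 to 1.00), and 3 of them (3.26%) had an unadjusted p under 0.05, against 10.8% of all genes. All 3, Smurf2, Twsg1 and Pmepa1, had lower values in PHF6 shRNA. Among all genes with such a p, 1297 were lower and 565 higher, so nothing is read from this direction.

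The ligands included the partners of the receptors above. Of 33 listed, 31 were measured, 17 with higher and 14 with lower means, and the median was 0.02 log2 units, from -0.0014 without control duplicate 2 to 0.05 without control duplicate 1. Of these, 12 were above background on all arrays and 17 were below it on every array, against 9536 and 5902 of all 17245 genes. Gdf10, a BMP-related ligand, read 127.1 and 85.2 in PHF6 shRNA against 75.7 and 76.0 in control shRNA, a difference of 0.46 ± 0.19 (adjusted p = 0.49). Most of that difference came from PHF6 shRNA duplicate 1, and without it the difference was 0.17. Tgfb3, a TGF-beta ligand, differed by 0.19 ± 0.09 (adjusted p = 0.55). Inhba, which encodes the subunit of activin A, read 260.1 and 233.2 in PHF6 shRNA against 274.3 and 274.9 in control shRNA, and differed by -0.16 ± 0.09 (adjusted p = 0.68), or -0.08 without PHF6 shRNA duplicate 2 and -0.24 when duplicate 1 of that group was dropped. Inhbb, the activin B subunit and a known ligand gene of the Acvr1c receptor, read 89.3 and 85.5 against 80.4 and 84.2 in control shRNA, and was named after its values were seen. Nodal, another ligand, read 152.2 and 147.9 in PHF6 shRNA against 167.8 and 156.1 in control shRNA, and was named in the same way. Lefty2, an inhibitory ligand of nodal signalling, was below background on every array.

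Of 11 co-receptors and other receptors, 6 were measured, 4 with higher and 2 with lower means. Their median was 0.02 log2 units and ran from -0.05 to 0.08 as each array was left out. Rgma, a co-receptor for BMPs and a guidance molecule, read 81.7 and 117.2 in PHF6 shRNA against 114.3 and 126.7 in control shRNA, and the groups overlapped (difference -0.30 ± 0.18, adjusted p = 0.70). Most of that difference came from PHF6 shRNA duplicate 1: it was -0.04 with that array left out and -0.56 with duplicate 2 of that group left out. Bambi, a receptor-like protein without a kinase that blocks signalling, read 50.4 and 52.3 against 51.2 and 44.5 in control shRNA, and its groups overlapped as well. Hjv, an iron-regulating co-receptor, was above background on 1 array, and Tgfbr3, which encodes betaglycan, on none.

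Secreted antagonists and latency proteins had 18 of 19 measured, 13 with higher and 5 with lower means, and a median of 0.04 log2 units, which was 0.01 to 0.03 as each array was left out. Twsg1, which encodes twisted gastrulation, an extracellular modulator of BMPs, read 92.0 and 107.0 in PHF6 shRNA against 116.8 and 132.4 in control shRNA. The groups did not overlap, and the difference was -0.33 ± 0.12 (adjusted p = 0.42). Ltbp3, a latent TGF-beta binding protein, differed by -0.25 ± 0.10 and Chrdl1, a chordin-like BMP antagonist, by -0.15 ± 0.10, while Fstl1, a follistatin-like protein, differed by 0.29 ± 0.15. Adjusted p for these 3 ran from 0.49 to 0.72. Without PHF6 shRNA duplicate 1 they were -0.14 for Ltbp3, -0.06 for Chrdl1 and 0.13 for Fstl1, and without PHF6 shRNA duplicate 2 they were -0.35, -0.25 and 0.46. Fstl1 was also 0.17 without control duplicate 2. Fst, follistatin, which binds activin, read 55.9 and 90.0 in PHF6 shRNA against 59.4 and 78.4 in control shRNA, went with the duplicate number, and was named after its values were seen.

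SMADs and intracellular regulators had 22 of 23 measured, 10 with higher and 12 with lower means, and a median of -0.02 log2 units, from -0.11 to 0.02 as each array was left out. Smurf2, a ubiquitin ligase that marks SMADs and receptors for degradation, had the smallest p of the pathway. It read 95.2 and 102.9 in PHF6 shRNA, against 129.0 and 166.1 in control shRNA. The groups did not overlap, and the difference of -0.56 ± 0.14 log2 units, 1.48-fold lower in PHF6 shRNA, had an unadjusted p of 0.0084 and did not pass (adjusted p = 0.28). The Smurf2 difference ran from -0.75 to -0.38 as single arrays were left out, and was -0.48 with its 2 probe sets averaged. Limk1, a kinase that acts on the actin cytoskeleton and binds the Bmpr2 tail, differed by -0.23 ± 0.10, Tab2, an adaptor of the kinase TAK1, by -0.21 ± 0.10 and Smad9 by -0.24 ± 0.12. These 3 had adjusted p from 0.49 to 0.59. As single arrays were left out, Limk1 ran from -0.31 to -0.15 (PHF6 shRNA duplicates 1 and 2 left out), Tab2 was -0.13 without PHF6 shRNA duplicate 1 and without control duplicate 2, and Smad9 was -0.38 without control duplicate 1 and -0.10 without control duplicate 2. Smad2, Smad3 and Smad4, through which Acvr1c signals, differed by -0.07, -0.04 and 0.07 log2 units, with overlapping groups, and were named after their values were seen. Smad3 lay near background and did not reach it on either array numbered 1, so its difference is not exact. Smad9 did not reach background on PHF6 shRNA duplicate 1.

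SMAD target genes had 19 of 20 measured, 14 with higher and 5 with lower means, against 47.7% higher among all genes. The 14 include 4 genes below background on every array, Tgfbi, Msx2, Smad6 and Smad7. None of the 14 had an unadjusted p under 0.05 (limma), and the share was not tested. Their median was 0.08 log2 units and ran from 0.03 to 0.09 as each array was left out. Pmepa1, a TGF-beta target that restrains SMAD signalling, read 150.5 and 146.7 in PHF6 shRNA against 172.7 and 175.0 in control shRNA, a difference of -0.23 ± 0.08 (adjusted p = 0.41) with no overlap. Junb, a transcription factor gene, read 80.7 and 70.1 against 63.4 and 66.0 in control shRNA, a difference of 0.22 ± 0.10 (adjusted p = 0.55), or 0.12 without PHF6 shRNA duplicate 1. Id3, a BMP target, read 63.0 and 81.3 in PHF6 shRNA against 74.4 and 96.3 in control shRNA, with overlap and a difference of -0.24 ± 0.18 (adjusted p = 0.78). It was -0.06 without PHF6 shRNA duplicate 1 or without control duplicate 2, and -0.43 when either of the other arrays was left out. Smad7, the inhibitory SMAD and itself a target, was below background on all arrays.

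**Figure D5:**
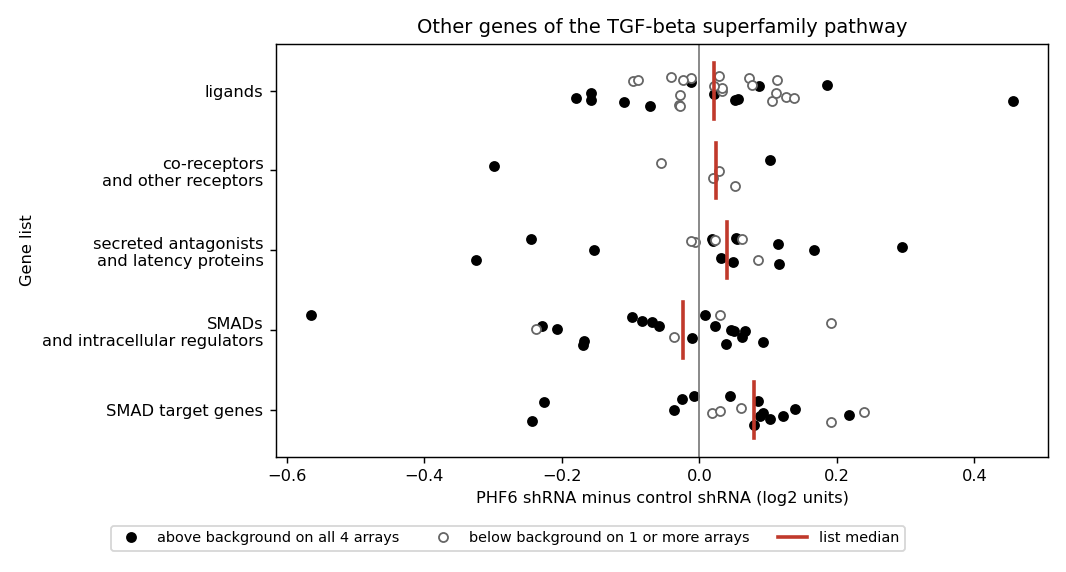
Log2 difference, PHF6 shRNA arrays minus control shRNA arrays (x axis), for the measured genes of 5 lists (y axis), 1 point per gene, filled where the gene was above background on all 4 arrays, with the list median as a red line. Smurf2 at -0.56 and Gdf10 at 0.46 are the outermost genes, and the list medians lie between -0.02 and 0.08.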

How the data were processed

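Per the labels' protocols, total RNA became sense-strand target on Affymetrix whole-transcript arrays of 1 colour, 2 per group. The deposited values are RMA intensities made by the authors, per the submitters' processing notes, with version and settings not given in the sources used here. They run from 8.57 to 6121, a linear scale, and log2 was taken before testing. RMA compresses differences of dim probe sets, and having 4 arrays limits the precision. Of 29214 rows, 18644 carried 1 symbol, 962 several and 9608 none here, and symbols were updated by gene identifier to RefSeq (GRCr8) for 18460. The brightest probe set stood for each of 17245 genes.

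The limma package (3.58.1, R 4.3.3) fitted all genes at once (lmFit, eBayes, two-sided, without covariates). P-values were adjusted by Benjamini-Hochberg over the 17245 genes, the threshold was 0.05, and the fit was checked on simulated data. The simulated arrays were independent of each other, so that check does not cover values shared by arrays of the same duplicate number. P-values measure the spread between these arrays. All receptors and Phf6 were named, up to 4 genes per pathway list by smallest p, and 5 genes by likeness to Acvr1c. The members and lists were chosen with earlier results of these data known. A comparison of the receptor proteins that had been planned was not run.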

Additional observations from a re-analysis of the deposited data

How the results depend on the processing

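The Acvr1c difference stayed between 0.96 and 1.52 log2 units over 12 alternatives, with 1.27 after a further quantile normalization, 1.26 under cyclic loess and 1.23 after centring. The count of all genes past the threshold was 0 as reported, and 0 to 90 as each array was left out (90 when PHF6 shRNA duplicate 2 was dropped, 2 when duplicate 1 of that group was). It stayed at 0 under the 3 scalings, the filter on dim genes, a trended variance prior and averaged probe sets. Of the receptors, 0 to 1 passed as each array was left out, the 1 being Acvr1c without PHF6 shRNA duplicate 2. No pathway gene passed in those fits. With the duplicate number as a replicate block, 909 genes (5.27%) passed, among them 2 of the receptors, Acvr1c and Acvr1 (adjusted p = 0.032), and 1 pathway gene, Smurf2 (adjusted p = 0.016). Acvr1c was chosen for its difference, so its place in these counts is no evidence. No label says that the numbers pair the arrays, and the correlation of the deviations of same-numbered arrays from their group means was 0.57 across genes. The cause of the changed counts was not tested.

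As each array was left out, the Bmpr1a difference ran from -0.33 to 0.13, turning positive without control duplicate 2 (0.13) and when PHF6 shRNA duplicate 1 was dropped (0.09). Bmpr1b, below background on every array, ran from -0.028 to 0.25, negative without PHF6 shRNA duplicate 2, and Tgfbr3 from -0.060 to 0.16, negative without control duplicate 2 (-0.058) and when PHF6 shRNA duplicate 1 was dropped. The other 6 tested receptors kept their direction under all 11 alternatives. Leaving out any 1 array put 7 of the 9 receptors without overlap, against 65.2% to 72.5% of all genes with the same arrays, and with all 4 arrays 5 of the 9 against 37.8%. All 6 receptors above the 95th percentile of background genes on every array were also above the 99th, and all 9 were above the median. The setting of dim values to background, the overlap counts and the list medians under other settings were added after seeing the data. Dim probe sets, among them Acvr1c in control arrays, have folds that are not exact.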
